A study of Homo sapiens with 9 samples.

Results

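The apolipoprotein genes of HepG2 cells are described here, with the *APOA1*-*APOC3*-*APOA4*-*APOA5* cluster on chromosome 11 set beside *APOA2*, *APOB*, *APOE*, *APOC1*, *APOC2* and *APOM*. The 10 genes were taken by symbol as a family selected on 1 measured value, the large rise of *APOA4* over the control hairpin in these libraries. The APOA4 values against the control hairpin are therefore given as a description with no test, and the other members entered by family name and position. Of the 10 listed genes, 9 were analysed out of 24204 symbols, and *APOC2* was not analysed here. All 9 passed the filter on low values, which left 11265 genes for testing.

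HepG2 is a human liver tumour line. RNA sequencing covered 3 groups of 3 libraries: pools transduced with a lentiviral control hairpin RNA, named shCtrl, and pools given either of 2 TRIB3-directed hairpins, named shTRIB3-1 and shTRIB3-2. TRIB3 is a pseudokinase induced by cell stress. Every group went through 48 h of infection and then 48 h of puromycin, so the controls carry a hairpin and the selection as well, and no group was left uninfected. The cells of a group were a selected pool rather than a clone, and the same 3 shCtrl libraries served both hairpins. The labels give high-glucose DMEM with serum and do not mention glutamine withdrawal, which the study's methods describe for sequenced RNA. The study's discussion reports changed DNA repair gene expression after TRIB3 depletion in cells not deprived of glutamine, without naming these libraries. The glutamine supply of these cells was therefore not settled here. The labels do not say whether the 3 libraries of a group came from separate cultures, so p-values measure the spread between these libraries, which may be technical.

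Apolipoproteins are the protein part of lipoproteins, the particles that carry cholesterol and triglyceride in blood. Liver and intestine make most of them: APOB is the structural protein of very low density and low density lipoprotein, APOA1 and APOA2 that of high density lipoprotein, and the small exchangeable members tune lipases and receptors. APOA4 is in humans chiefly a product of the small intestine, where it is released with chylomicrons after a fat meal, and the adult human liver makes little.

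Levels are given in FPKM, the number of fragments of a gene scaled by its length and by the depth of the library. Library totals, worked out from the FPKM values, ran from 34206726 to 36311029 fragments, a highest to lowest ratio of 1.06. The targeted gene TRIB3 read 67.9, 65.8 and 66.6 FPKM with shCtrl, 34.1, 32.7 and 34.0 FPKM with shTRIB3-1 and 20.6, 20.7 and 20.4 FPKM with shTRIB3-2. TRIB3 was thus lower in every library labelled with a TRIB3 hairpin, at −0.99 and −1.70 on a log2 scale (adjusted p = 5.30e-11 and 5.39e-13, limma). All 15 hepatocyte markers were expressed, the lowest library of any at 5.56 FPKM, with a summed level of 12536 to 13585 FPKM with shCtrl, 10833 to 11471 FPKM with shTRIB3-1 and 14481 to 14974 FPKM with shTRIB3-2. In bulk RNA, fewer cells of one kind and less RNA per cell cannot be told apart.

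Start-site sequence is shown first because *APOA4* and *APOA5* are neighbours on the same strand with opposite changes, and *APOE* is a highly expressed member elsewhere. RefSeq windows (GRCh38.p14, 250 bases before to 50 after the start) were found for 7 of the 10 members, with none for *APOA1*, *APOC3* or *APOB*. The windows lie at chr11:116823255-116823554 (minus strand) for APOA4, chr11:116792371-116792670 (minus strand) for APOA5 and chr19:44905546-44905845 (plus strand) for APOE, each read 5′ to 3′ along the gene. Other start-site windows, beginning at base 116791830 for APOA5 and at 44905771 and 44906151 for APOE, are not shown. Capitals mark matches to any of the motifs searched on both strands.
APOA4: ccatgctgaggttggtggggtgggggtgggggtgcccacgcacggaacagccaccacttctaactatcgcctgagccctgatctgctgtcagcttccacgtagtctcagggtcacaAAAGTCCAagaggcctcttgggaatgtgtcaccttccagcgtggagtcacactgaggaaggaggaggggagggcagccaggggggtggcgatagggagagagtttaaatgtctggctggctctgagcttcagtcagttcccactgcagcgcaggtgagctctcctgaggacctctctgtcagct
APOA5: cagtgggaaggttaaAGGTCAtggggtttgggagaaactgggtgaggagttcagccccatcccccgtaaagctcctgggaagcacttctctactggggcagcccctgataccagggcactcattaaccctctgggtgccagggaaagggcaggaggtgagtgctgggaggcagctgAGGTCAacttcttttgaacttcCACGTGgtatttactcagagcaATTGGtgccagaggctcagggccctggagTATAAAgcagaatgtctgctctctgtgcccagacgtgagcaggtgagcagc
APOE: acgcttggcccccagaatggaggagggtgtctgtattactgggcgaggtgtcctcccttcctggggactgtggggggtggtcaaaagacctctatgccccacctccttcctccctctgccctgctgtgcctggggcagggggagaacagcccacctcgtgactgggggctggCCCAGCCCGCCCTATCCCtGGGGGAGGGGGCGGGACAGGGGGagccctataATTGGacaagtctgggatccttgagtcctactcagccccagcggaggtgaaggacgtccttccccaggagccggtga

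The motifs searched were the cyclic AMP response element TGACGTCA and its 5-base part TGACG, which every TGACGTCA also holds, the nuclear receptor half-site AGGTCA, the HNF4-type site CAAAGTCCA, the CCAAT box, the TATA box TATAAA, the E-box CACGTG and 4 runs of at least 3 G with gaps of 1 to 7 bases. None of these 8 was found in the APOA4 window. AAAGTCCA, which is contained in CAAAGTCCA, was added after the APOA4 window had been read; it begins 134 bases before the APOA4 start and occurs in 1.14% of 35116 RefSeq windows. The APOA5 window shown held AGGTCA at 235 and 74 bases before the start, CACGTG at 52, CCAAT on the opposite strand at 30 and TATAAA at 1. The APOA5 window not shown held only AGGTCA, at 156 bases before its start. The APOE window shown held 4 runs of G on each strand and CCAAT on the opposite strand at 27 bases before the start. Neither APOE window not shown held the runs of G. The window from 44906151 held only CCAAT, on the opposite strand at 202 bases, and that from 44905771 held no match. Over all windows the shares were 13.8% for AGGTCA, 34.6% for CCAAT, 11.5% for TATAAA, 7.26% for CACGTG and 25.0% for the runs of G, against 1.85% for TGACGTCA, 24.6% for TGACG and 0.384% for CAAAGTCCA. Windows of tested genes (13035) held AGGTCA in 10.6%, CCAAT in 35.1%, TATAAA in 6.08%, CACGTG in 9.54% and the runs of G in 33.7%. For TGACGTCA, TGACG, CAAAGTCCA and AAAGTCCA these shares were 2.97%, 32.2%, 0.43% and 0.844%. A match describes the letters of a window and is not a measured binding site.

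With shCtrl the levels of the members spanned more than 3 orders of magnitude. The order of mean FPKM was APOA2, APOA1, APOB, APOE, APOC1, APOC3, APOM, APOA5 and APOA4, from 3252 for APOA2 to 1.97 for APOA4, and no pair of neighbours in that order had overlapping libraries. With both TRIB3 hairpins APOE stood above APOB, APOC3 above APOC1, and APOA4 moved from the ninth place to the seventh, above APOM and APOA5. The only neighbours whose libraries overlapped after knockdown were APOC3 and APOC1 with shTRIB3-1.

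**Figure D1:**
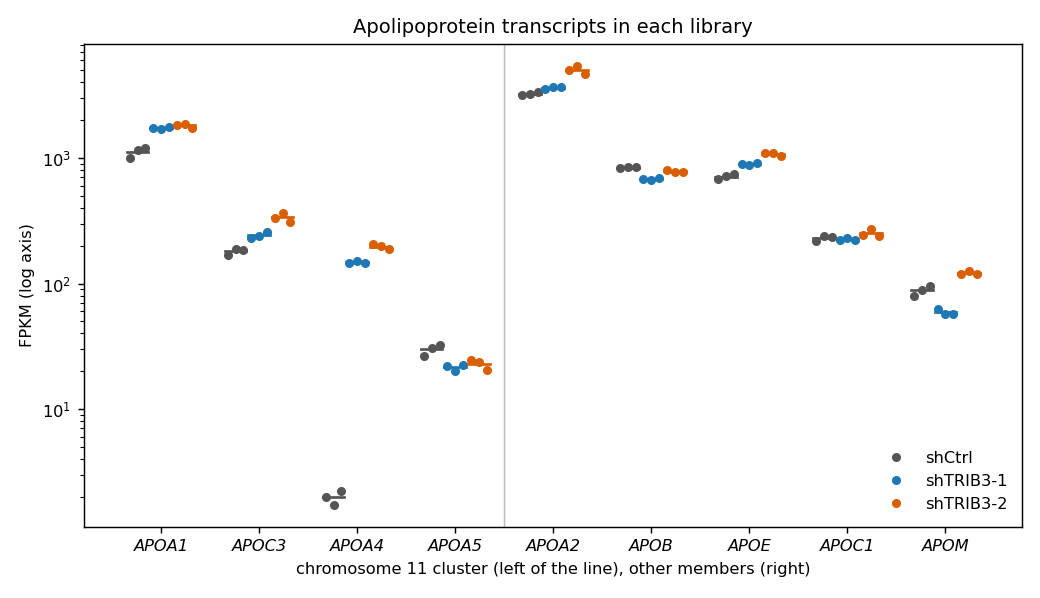
FPKM of the 9 analysed members in each of 9 libraries on a log axis. Points are libraries and short lines the mean of 3, with the chromosome 11 cluster left of the grey line. APOA4 runs from 1.97 FPKM with shCtrl to 148 and 197 FPKM with the TRIB3 hairpins, and APOA5 lies lower with both hairpins.

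The chromosome 11 cluster spans 48256 bases (GRCh38, 116789367 to 116837622) and holds APOA5, APOA4, APOC3 and APOA1 in that order. APOA4 (116820700 to 116823304, minus strand) read 1.99, 1.72 and 2.20 FPKM with shCtrl, from 92 to 116 fragments. It read 147, 151 and 146 FPKM with shTRIB3-1 and 205, 197 and 188 FPKM with shTRIB3-2, from 7390 to 7634 and from 9705 to 10314 fragments. The 3 groups did not overlap, the control libraries being lowest and the shTRIB3-2 libraries highest. The means were 1.97 ± 0.24, 148 ± 3.05 and 197 ± 8.53 FPKM (SD, n = 3), ratios of 75.0 and 99.8 to shCtrl. Fitted log2 fold changes were 6.16 and 6.58, the 3rd and the 1st from the top among 11265 genes. The difference between the hairpins was not itself used to choose the set, but it comes from the same knockdown libraries. APOA4 was 0.41 higher on the log2 scale with shTRIB3-2 than with shTRIB3-1 (SE 0.067, adjusted p = 3.94e-04, limma). A gene of unnamed symbol on the opposite strand, ENSG00000285513, covers 43.2% of the APOA4 exon bases, and whether strand was used in counting is not given in the sources used here, so fragments of the pair cannot be told apart.

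APOA1, the main protein of high density lipoprotein, stood at 1009, 1159 and 1207 FPKM with shCtrl, at 1727, 1718 and 1768 FPKM with shTRIB3-1 and at 1843, 1867 and 1746 FPKM with shTRIB3-2. Both knockdown groups lay above all control libraries and overlapped each other. APOA1 rose with each hairpin, the log2 fold changes being 0.63 and 0.70 (SE 0.059, adjusted p = 9.40e-07 and 3.38e-07). Between hairpins the difference was 0.07 (95% confidence interval −0.06 to 0.19, adjusted p = 0.392). APOA1-AS covers 11.2% of its exon bases on the opposite strand.

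APOC3, an inhibitor of lipoprotein lipase and of remnant uptake, read 168, 187 and 185 FPKM with shCtrl, 229, 238 and 258 FPKM with shTRIB3-1 and 335, 362 and 311 FPKM with shTRIB3-2. The 3 groups were separate and in the same order as for APOA4. APOC3 rose by 0.42 and 0.90 (SE 0.060, adjusted p = 4.20e-05 and 4.12e-08) and was 0.47 higher with shTRIB3-2 than with shTRIB3-1 (adjusted p = 5.94e-05).

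APOA5, which aids lipoprotein lipase and is made almost wholly in liver, read 26.5, 30.8 and 32.3 FPKM with shCtrl, 22.1, 20.3 and 22.4 FPKM with shTRIB3-1 and 24.7, 23.7 and 20.6 FPKM with shTRIB3-2. All 6 knockdown libraries were below the 3 control libraries, and the knockdown groups overlapped. APOA5 fell, by log2 fold changes of −0.46 and −0.38 (SE 0.079, adjusted p = 1.85e-04 and 8.75e-04), opposite in direction to APOA1 and APOC3. Between hairpins the difference was 0.09 (95% confidence interval −0.09 to 0.26, adjusted p = 0.398).

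The make-up of the cluster was read relative to APOA1. For each 100 FPKM of APOA1 there were 0.176 ± 0.0251 FPKM of APOA4 with shCtrl, 8.52 ± 0.286 with shTRIB3-1 and 10.8 ± 0.279 with shTRIB3-2 (SD, n = 3). APOA5 went the other way, from 2.65 ± 0.0266 to 1.24 ± 0.0549 and 1.26 ± 0.0803 for each 100 of APOA1. APOC3 was at 16.1 ± 0.654, 13.9 ± 0.648 and 18.5 ± 0.823.

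Around the cluster, 3 genes outside the family within 250 kb were tested and none passed both thresholds (adjusted p below 0.05, and a change of more than 1 either way on the log2 scale). ZPR1, a zinc finger protein gene 1328 bases from APOA5, had values of 0.58 and 0.42, and SIK3, a salt-inducible kinase gene 5780 bases beyond APOA1, of 0.50 and 0.37. BUD13, a splicing factor gene beyond ZPR1, had values of −0.10 (adjusted p = 0.182) and −0.28. ZPR1 and SIK3 rose at adjusted p under 0.05 with both hairpins, and BUD13 fell with shTRIB3-2 (adjusted p = 0.00216). Over all tested genes, 32.9% were higher and 41.5% lower with shTRIB3-1, and 35.4% and 40.5% with shTRIB3-2. Both thresholds were passed by 11.5% and 12.3% of all tested genes.

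**Figure D2:**
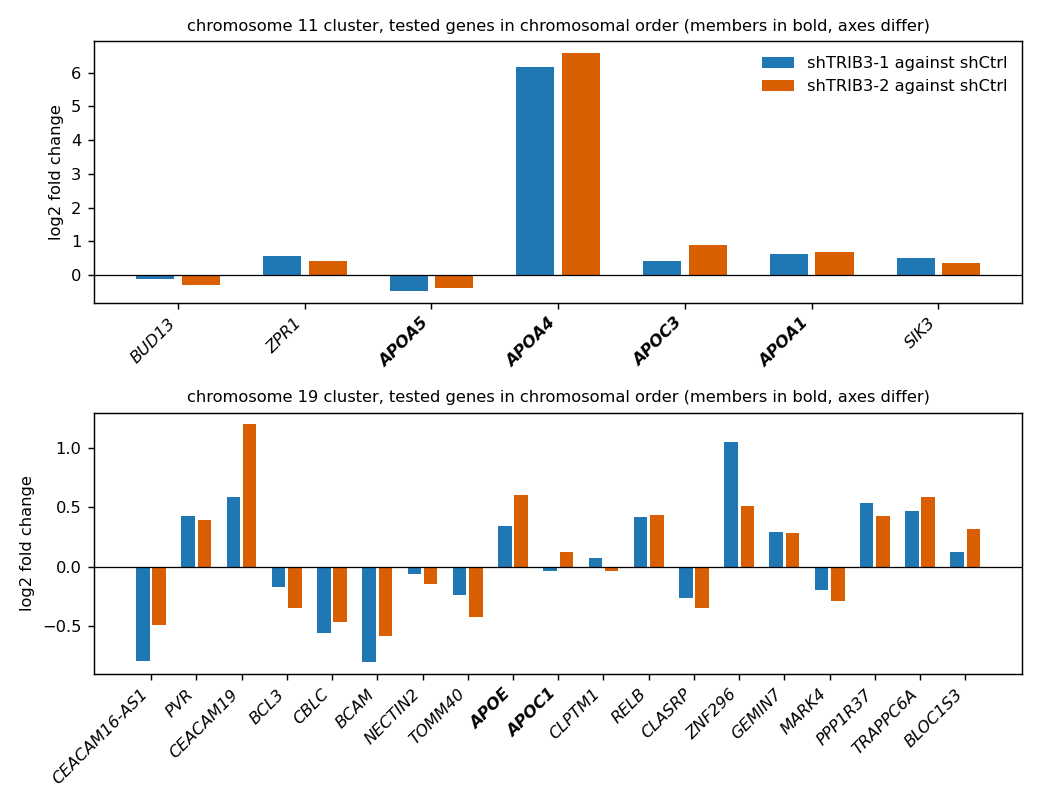
Log2 fold change of tested genes around the chromosome 11 cluster (top) and the chromosome 19 cluster (bottom) in chromosomal order, with bars for shTRIB3-1 and shTRIB3-2 against shCtrl and members in bold; the vertical axes differ. APOA4 reaches 6.16 and 6.58 between APOA5 at −0.46 and −0.38 and APOC3 at 0.42 and 0.90.

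APOA2, the second protein of high density lipoprotein, lies on chromosome 1 (161222292 to 161223631, minus strand) and was the most abundant member, at 3159, 3267 and 3330 FPKM with shCtrl, 3526, 3664 and 3648 FPKM with shTRIB3-1 and 4986, 5419 and 4700 FPKM with shTRIB3-2. The groups were separate, with a small step to shTRIB3-1 and a larger one to shTRIB3-2. APOA2 rose by 0.63 with shTRIB3-2 (adjusted p = 4.43e-07) and by 0.15 with shTRIB3-1 (adjusted p = 0.0241). The shTRIB3-1 call ended when shCtrl replicate 1, shCtrl replicate 2, shTRIB3-1 replicate 2 or shTRIB3-1 replicate 3 was left out (adjusted p = 0.0622, 0.053, 0.0703 and 0.0696). It ended too when no filter was used (0.165) and on the TPM scale (0.0654).

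APOB, the non-exchangeable protein of very low density lipoprotein, on chromosome 2 (21001429 to 21044073, minus strand), read 831, 848 and 841 FPKM with shCtrl, 675, 664 and 695 FPKM with shTRIB3-1 and 808, 777 and 773 FPKM with shTRIB3-2. The 3 groups were separate, lowest with shTRIB3-1. APOB fell by 0.31 with shTRIB3-1 (SE 0.033, adjusted p = 3.21e-06). With shTRIB3-2 the value was −0.10 (adjusted p = 0.0186), which quantile normalization turned to 0.087 (adjusted p = 0.0707). That call was also lost without shCtrl replicate 2 (adjusted p = 0.0626) and without shTRIB3-2 replicate 3 (adjusted p = 0.0678).

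APOE and APOC1 lie side by side on chromosome 19 (44905791 to 44909393 and 44914247 to 44919349, plus strand). APOE, the ligand by which remnants are taken up, read 678, 715 and 743 FPKM with shCtrl, 898, 888 and 913 FPKM with shTRIB3-1 and 1093, 1098 and 1047 FPKM with shTRIB3-2. The groups did not overlap and rose in that order, by 0.34 and 0.60 against shCtrl (SE 0.039, adjusted p = 7.03e-06 and 3.27e-08) and by 0.26 between hairpins (adjusted p = 2.11e-04).

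APOC1, an inhibitor of cholesteryl ester transfer, read 220, 240 and 236 FPKM with shCtrl, 223, 230 and 224 FPKM with shTRIB3-1 and 245, 272 and 240 FPKM with shTRIB3-2. The shTRIB3-1 libraries overlapped the controls, with a difference of −0.04 (95% confidence interval −0.14 to 0.07, adjusted p = 0.495). With shTRIB3-2 it was 0.12 (adjusted p = 0.0342), a call lost without shCtrl replicate 1 (0.131), without shTRIB3-2 replicate 2 (0.157), without a filter (0.099) and in a fit of the 2 groups alone (0.0528). Against shTRIB3-1 it was 0.16 higher (adjusted p = 0.0168), a call lost without shTRIB3-2 replicate 2 (adjusted p = 0.0605). ENSG00000280087 overlaps 40.7% of APOC1 exon bases on the same strand, so counting could split or drop reads there. For each 100 FPKM of APOE there were 32.6 ± 0.97 FPKM of APOC1 with shCtrl, 25.1 ± 0.746 with shTRIB3-1 and 23.4 ± 1.23 with shTRIB3-2 (SD, n = 3).

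Near these genes, TOMM40, the mitochondrial import pore gene 2102 bases before APOE, had values of −0.24 and −0.42. BCAM was at −0.80 and −0.58, CLASRP at −0.26 and −0.35, RELB at 0.42 and 0.44, NECTIN2 at −0.06 and −0.15, and CLPTM1 at 0.07 and −0.04. Of 17 tested genes outside the family within 250 kb, 1 passed both thresholds with each hairpin, against 11.5% and 12.3% of all tested genes. They were ZNF296 at 1.05 with shTRIB3-1 and CEACAM19 at 1.19 with shTRIB3-2, both named after their values were seen. The median change of the 17 was 0.07 and −0.04.

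APOM, which carries sphingosine-1-phosphate on high density lipoprotein, was the member on which the hairpins differed most. It lies on chromosome 6 (31652416 to 31658210, plus strand) and read 80.2, 88.5 and 95.5 FPKM with shCtrl, 62.3, 57.2 and 57.4 FPKM with shTRIB3-1 and 119, 127 and 120 FPKM with shTRIB3-2. The shTRIB3-1 libraries were all below the controls and the shTRIB3-2 libraries all above. APOM fell by 0.58 with shTRIB3-1 (adjusted p = 1.58e-06) and rose by 0.47 with shTRIB3-2 (adjusted p = 8.52e-06). The direct difference between hairpins was 1.05 (SE 0.057, adjusted p = 6.74e-08), the 23rd largest rise of 11265 genes. BAG6 covers 11% of APOM exon bases on the opposite strand.

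**Figure D3:**
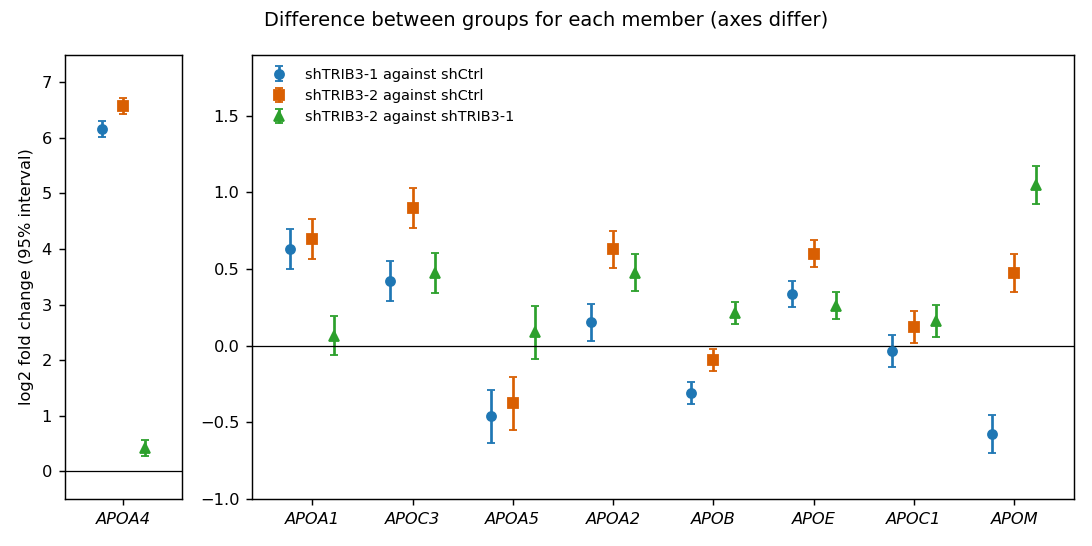
Log2 fold change of each member with its 95% confidence interval for shTRIB3-1 and shTRIB3-2 against shCtrl and for shTRIB3-2 against shTRIB3-1 (limma, 3 libraries a group); the APOA4 panel has its own axis. APOA4 was selected on its rise over shCtrl, so its intervals against shCtrl are a description and no test. APOA5 lies below 0 with both hairpins, at −0.46 and −0.38, and APOM changes sign between them, from −0.58 to 0.47.

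Leaving out APOA4, which the set was chosen for, 4 of the other 8 members were higher and 3 lower with shTRIB3-1 at adjusted p under 0.05, against 32.9% and 41.5% of all tested genes. With shTRIB3-2, 6 were higher and 2 lower, against 35.4% and 40.5%. None of the 8 passed both thresholds with either hairpin by limma (0 under voom on fragments as well), where 11.5% and 12.3% of all genes passed, the largest changes being 0.63 and 0.90. Both comparisons share their control libraries, so the second count is not separate evidence. Median changes of the 8 were 0.06 and 0.54, beside −0.06 and −0.03 over all tested genes.

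Between the hairpins, 7 of 9 members were higher with shTRIB3-2 and 0 lower at adjusted p under 0.05 (limma, with 7 and 0 under voom on fragments as well, and no member with a negative value), against 25.1% and 20.7% of all genes. The 7 include APOA4, whose knockdown libraries also served to choose the set. APOM was the 1 member past both thresholds, where 2.08% of genes passed. The median was 0.26 beside 0.03 for all genes. In the same comparison all 15 hepatocyte markers were higher at adjusted p under 0.05, with a median of 0.41; their part in the members' values was not tested.

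Added together, the members came to 6461 ± 258 FPKM with shCtrl, 7625 ± 111 FPKM with shTRIB3-1 and 9650 ± 499 FPKM with shTRIB3-2 (SD, n = 3). As a share of all fragments this was 1.63% ± 0.0349, 1.55% ± 0.0285 and 1.82% ± 0.0465. The FPKM sum was thus higher with shTRIB3-1 than with shCtrl and the share of fragments lower. FPKM divides by length, so the long APOB transcript weighs more in fragments than in FPKM.

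The rest of the lipoprotein machinery was counted in lists by role at adjusted p under 0.05. Genes with a whole group under 1 FPKM were left out of these counts (SAA4, LMF1, PPARGC1A, RORA, HAMP and FITM1), since the filter on low values can set their direction. Over the 10527 tested genes so left, 32.1% were higher and 41.1% lower with shTRIB3-1, and 34.9% and 40.1% with shTRIB3-2. Of 9 other apolipoproteins and proteins of high density lipoprotein, 2 were higher and 5 lower with each hairpin. APOH, a phospholipid-binding plasma protein, fell (−1.09 and −0.84), from 1710 to 803 and 953 FPKM. APOF, an inhibitor of lipid transfer, fell (−1.39 and −0.98), as did APOL6 (−1.03 and −1.17) and APOL1, the trypanolytic factor (−0.69 and −0.92). These 4 fell with both hairpins, while CLU (0.57 and 0.28) and APOL2 (0.59 and 0.49) of the same list rose. Among the members, APOA1, APOC3 and APOE rose with both hairpins, APOA5 fell with both and APOB fell with shTRIB3-1.

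For assembly and secretion, 6 of 20 genes were higher and 10 lower with shTRIB3-1, and 10 and 8 with shTRIB3-2. MTTP, the transfer protein that loads lipid onto APOB, rose from 24.5 ± 1.73 to 66.8 ± 0.859 and 64.1 ± 1.04 FPKM (SD, n = 3), or 1.44 and 1.39 as log2 fold changes (adjusted p = 5.53e-11 and 5.71e-11), while APOB fell with shTRIB3-1. CIDEB, a lipid droplet protein needed for very low density lipoprotein lipidation, rose by 1.29 and 1.75. SOAT2, which makes cholesteryl esters, rose by 1.26 and 1.51. AADAC, a triglyceride-mobilizing hydrolase, fell (−0.89 and −0.80).

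Among 14 receptor and uptake genes, 7 were higher and 3 lower with shTRIB3-1, and 9 and 2 with shTRIB3-2. MYLIP, a ubiquitin ligase that limits lipoprotein uptake, rose by 1.15 and 0.73. VLDLR rose by 0.60 with shTRIB3-1 and had a value of 0.13 with shTRIB3-2 (adjusted p = 0.243).

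Of 12 lipases and remodelling genes, 6 were higher with each hairpin and 4 and 3 lower. LIPG, endothelial lipase, rose by 1.30 and 1.43. BMP1, the protease that matures APOA1, rose by 1.02 and 1.34. ABCA1, which lipidates APOA1, rose by 0.73 and 1.01, and PLTP, the phospholipid transfer protein, by 0.62 and 1.01.

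**Figure D4:**
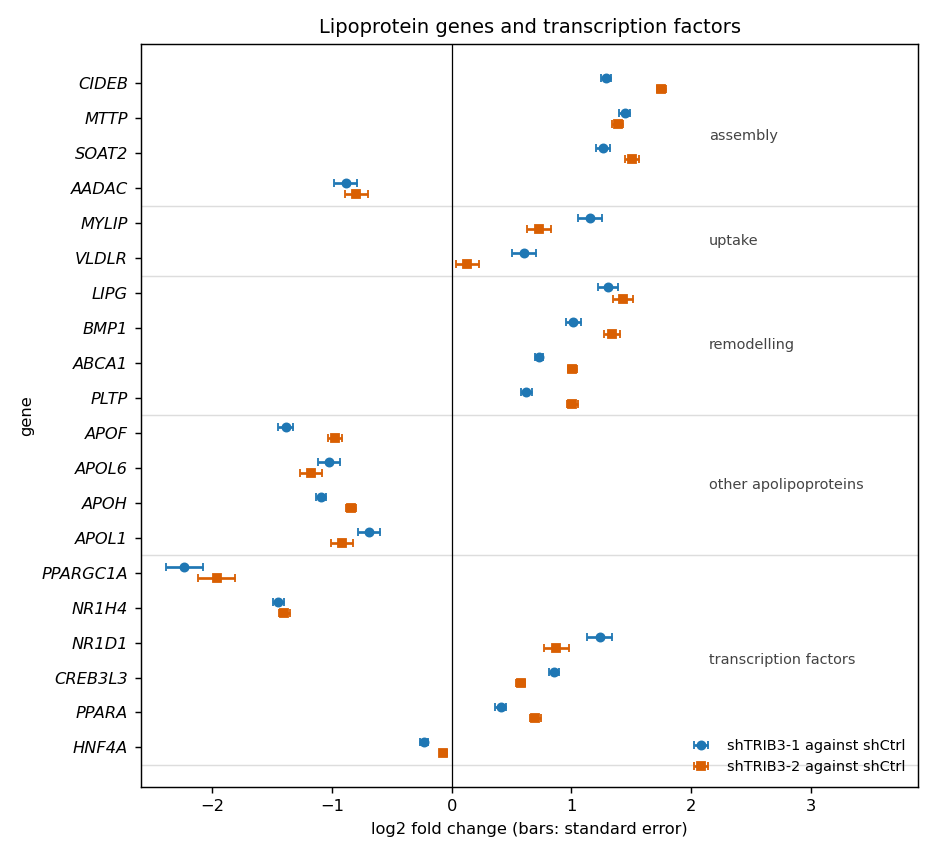
Log2 fold change (bars: standard error) of genes of lipoprotein assembly, uptake, remodelling, other apolipoproteins and transcription factors, for shTRIB3-1 (circles) and shTRIB3-2 (squares) against the same 3 shCtrl libraries. MTTP lies at 1.44 and 1.39 and NR1H4 at −1.45 and −1.40, while HNF4A lies at −0.23 and −0.07.

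Transcription factors known to act on these genes were counted as a list of 39, of which 11 were higher and 22 lower with shTRIB3-1, and 11 and 18 with shTRIB3-2. HNF4A, the liver factor with sites in many apolipoprotein promoters, read 46.7 ± 1.41, 39.8 ± 1.01 and 44.5 ± 0.717 FPKM (SD, n = 3), a fall of 0.23 on the log2 scale with shTRIB3-1 and −0.07 with shTRIB3-2 (adjusted p = 0.0761). CREB3L3, a membrane-bound factor that acts on *APOA4*, *APOA5* and *APOC2*, rose from 23.9 to 43.3 and 35.7 FPKM, by 0.86 and 0.58.

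PPARA, the fatty acid receptor, rose by 0.41 and 0.70. NR1H4, the bile acid receptor, fell (−1.45 and −1.40) and PPARGC1A, a coactivator that passed the filter through shCtrl alone, had values of −2.23 and −1.96. NR1D1, the repressor REV-ERB alpha, rose by 1.23 and 0.87. CDX2, the intestinal master factor, stayed at 0.0106 to 0.0144 FPKM in the 3 group means.

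Of 6 CREB3L3 targets outside the family, 3 were higher and 3 lower with shTRIB3-1, and 3 and 2 with shTRIB3-2. CIDEC, a lipid droplet protein, rose by 3.13 and 3.36 and PCK1, the gluconeogenic enzyme, by 3.52 and 2.49. HAMP, the iron hormone hepcidin, had values of −4.46 and −4.28 and passed the filter through shCtrl alone. INSIG2, a brake on sterol synthesis, fell (−1.69 and −1.09).

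Because APOA4 is chiefly intestinal, 23 enterocyte markers were read beside it. Their summed level was 144 to 148 FPKM with shCtrl, 195 to 202 FPKM with shTRIB3-1 and 196 to 204 FPKM with shTRIB3-2. In shCtrl 19 of 23 were under 1 FPKM in all 3 libraries, and 15 with each TRIB3 hairpin. VIL1 and ANPEP, which the control cells already expressed at 61.8 and 76.0 FPKM, made up 67.6% to 94.8% of the sum in each library. The 8 that passed the filter include genes that passed through the knockdown groups alone and so had to differ, and levels only are read from them.

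RBP2, the intestinal retinol carrier, went from a mean of 0.121 FPKM to 6.14 and 4.68 FPKM, and GUCA2A, guanylin, from 1.22 to 33.0 and 5.87 FPKM. DPP4, a brush-border peptidase, went from 0.529 to 7.69 and 2.43 FPKM and KRT20, an epithelial keratin, from 0.452 to 1.76 and 3.25 FPKM. Other markers of the list were lower with at least 1 hairpin. FABP2, the intestinal fatty acid carrier, went from 0.654 to 0.325 and 0.478 FPKM. TREH, trehalase, went from 0.579 to 0.0984 and 0.231 FPKM, and the means of FABP2 and TREH were all under 1 FPKM. ANPEP went from 76.0 FPKM down to 61.9 FPKM with shTRIB3-1 but up to 82.1 FPKM with shTRIB3-2. The defining markers SI and LCT were at 0.00159 FPKM or less in every group mean. Markers of other liver cells summed to 312 to 344 FPKM with shCtrl, 682 to 734 FPKM with shTRIB3-1 and 704 to 717 FPKM with shTRIB3-2. Most of this sum was KRT19, a biliary keratin, at 234, 632 and 622 FPKM, while 9 of 12 were under 1 FPKM in each group. The part of either marker list in the APOA4 level was not tested.

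Genes whose pattern over the 9 libraries lay closest to APOA4 were found by Euclidean distance on the log2 scale after centring on shCtrl. They were RBP2 (distance 4.12), ANXA1 (4.61), HSPA6 (4.72), C11orf86 (4.81) and SPANXB1 (5.02). RBP2, ANXA1, C11orf86 and SPANXB1 had shCtrl means of 0.121, 0.167, 0.238 and 0.279 FPKM and passed the filter through the knockdown groups alone. As APOA4 was selected on its rise, the match is a description only. ANXA1 had log2 fold changes of 7.88 and 4.56, HSPA6 of 6.14 and 3.87 and SPANXB1 of 6.41 and 3.73. These 3 were lower with shTRIB3-2 than with shTRIB3-1, unlike APOA4. Members that moved less had much closer neighbours, at 0.0747 for APOB (PCYOX1) and 0.0969 (CANX), 0.11 for APOE (IDI1) and 0.225 for APOC3 (VTN). APOM stood between, with LINC01639 at 0.372 and HGFAC at 0.49. Next to APOA1 were FBXO2 and RNF145, next to APOA2 ZNF512B and FILIP1L, next to APOA5 MHENCR and IMP3, and next to APOC1 SSR4 and ASGR2.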

How the data were processed

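The libraries were 9 HepG2 samples in 3 groups of 3, mapped by title and column name. The authors deposited 1 table of FPKM values per gene symbol, with no counts. The submitters' processing notes name HTSeq, R 3.2.0 and GRCh38. The study's methods name the aligner STAR, beside a strand-specific kit other than the VAHTS Universal V6 kit of the labels, so it is not certain that they describe these libraries. All 9 value columns matched a sample.

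The members and the gene lists were chosen with earlier results of these data known. Genes with an FPKM of at least 1 in at least 3 libraries were tested by limma 3.58.1 (R 4.3.3) on log2(FPKM + 0.1), with 3 group means, a mean-variance trend, two-sided tests and Benjamini-Hochberg adjustment over 11265 genes. On this scale a fold change of a low gene is understated. Calls needed an adjusted p below 0.05 and a change of more than 1 in either direction on the log2 scale. The study's count model was not used, as the deposited unit is FPKM. Whole fragments were worked out from the FPKM values within 0.02 of a whole number and used for depth and a voom alternative. Steps were tested on simulated data. Replicates of a group differed by more than sampling noise, with a chi-square per degree of freedom of 3.13 to 7.54.

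Named genes were all members, TRIB3, of each list the 4 tested genes with the largest mean change against shCtrl plus MTTP, HNF4A, CREB3L3, PPARA, NR1H4, CDX2 and RBP2, tested neighbours within 100 kb, and the nearest patterns. Some genes that this rule takes are not reported here, and CDX2 was below the filter and not tested. VIL1, ANPEP, FABP2, TREH, SI, LCT, CLU, APOL2, SAA4, LMF1, RORA and FITM1 were named, and genes with a low group left out of list counts, after values were seen. Positions are from GENCODE on GRCh38 and start-site windows from RefSeq on GRCh38.p14. Alternatives covered the pseudocount, the filter, 3 rescalings, voom, a fit of 2 groups, the replicate block and leaving out each library.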

Additional observations from a re-analysis of the deposited data

Results flagged for a closer look

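APOM drew attention because its 2 knockdown groups moved in opposite directions from the same controls. The rule for a flag asked that both changes and their difference have adjusted p under 0.05. The p-value of the difference is therefore part of the flag and no separate support. The difference between hairpins, tested directly, was 1.05 on the log2 scale (adjusted p = 6.74e-08, limma), with 3 of 3 shTRIB3-1 libraries below and 3 of 3 shTRIB3-2 libraries above all shCtrl libraries. Of 11265 tested genes, 105 (0.932%) were lower with shTRIB3-1 and higher with shTRIB3-2 with each change and their difference at adjusted p under 0.05, and 3 of these differed by more than 1: APOM, CYP3A7 and ITIH1, the last 2 named after their values were seen. No group has more than 3 libraries, so no search for single outlying libraries was made.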

How the results depend on the processing

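Over 19 alternatives, 21 of 27 member comparisons kept their side of adjusted p 0.05. Of these, 20 kept their direction too, the exception being APOC1 with shTRIB3-1, which was not past the threshold and ran from −0.0915 to 0.0429. The 21 include APOA4 against shCtrl with each hairpin, where the selection of the set fixed side and direction. The lower count with shTRIB3-2, 2 members, became 1 with no filter, with libraries centred on their medians, under quantile normalization and under voom on fragments, and ran from 1 to 2 when single libraries were left out, since the APOB call was lost. Under quantile normalization APOB with shTRIB3-2 reversed to 0.0871, APOA2 gave 0 in every comparison because it holds the same rank in every library, and 2 members rather than 1, APOA4 included, passed both thresholds with shTRIB3-2; the cause was not tested. APOC1 against shTRIB3-1 was also lost with no filter (adjusted p = 0.0633) and with centring (0.109). Of 207 comparisons of the 69 other genes tested by the naming rule, 184 kept their side under every alternative and 173 their direction as well; none past the threshold changed direction.

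Over all genes, the calls of 1294, 1389 and 234 (shTRIB3-1 and shTRIB3-2 against shCtrl, and between hairpins) became 780, 888 and 84 with a pseudocount of 1, 558, 619 and 75 at a mean FPKM of at least 5, where fewer genes were tested, and 1999, 1941 and 417 with no filter, where more were. Calls were 607 higher and 687 lower with shTRIB3-1 and 683 and 706 with shTRIB3-2. Centring made these 687 and 576, and 754 and 644. The median of all genes with shTRIB3-1 was −0.109 on the TPM scale. A replicate block changed no member count. For shTRIB3-1 these were 5 higher, with APOA4 among them by selection, and 3 lower. In the main fit, 32.9% of all tested genes were higher and 41.5% lower with shTRIB3-1. Same-numbered libraries deviated together little or not at all (r from −0.0742 to 0.0933 over 9 pairs). With 3 libraries a group this cannot exclude that the numbers pair the libraries. Counting error limits APOA4 in shCtrl, at 92 to 116 fragments; 3 libraries a group limit small differences such as those of APOC1.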

Other observations

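The 4 hepatocyte markers with the largest mean change did not move together. HP, haptoglobin, was at 82.6 ± 7.12, 6.01 ± 0.389 and 7.4 ± 0.878 FPKM with shCtrl, shTRIB3-1 and shTRIB3-2 (SD, n = 3) and fell, at −3.76 and −3.47 in log2 units (adjusted p = 6.02e-12 and 6.76e-12, limma). The fibrinogen chains FGG and FGA fell as well, FGG with −1.67 and −1.21 and FGA with −1.55 and −0.99. TTR, transthyretin, rose (1.08 and 1.71), from 27.9 to 59.2 and 91.5 FPKM. Of the 15 markers, 4 were higher and 8 lower with shTRIB3-1, and 9 and 4 with shTRIB3-2, against 32.9% and 41.5%, and 35.4% and 40.5%, of all tested genes.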
